A study of Homo sapiens with 3 samples.

Results

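The genes described here are the replication-dependent histone genes, measured by total RNA sequencing after knockdown of the RNA-binding protein RBMS1 in SW480, an established cell line from a human colon adenocarcinoma. Members were all measured genes whose current symbol is H1-1 to H1-6 or begins with H2AC, H2BC, H3C or H4C and a number. They were 55 of the 12582 genes that could be named in the authors' deposited table, and came from 56 of its transcripts. Of the 84 RefSeq genes that match these symbols, 70 are protein-coding, and all 55 measured members are among those. The other 15 coding genes (H1-1, H1-6, H2AC1, H2AC18, H2AC19, H2BC1, H2BC12L, H3C14, H3C15, H4C6, H4C7, H4C11, H4C12, H4C14 and H4C15) and 14 pseudogenes or non-coding genes had no value here and were not analysed.

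Cells were transduced with short hairpin RNA (shRNA), either control shRNA (2 libraries) or shRBMS1, 1 hairpin against RBMS1 (1 library), and RNA was taken 48 hours later. Ribosomal RNA was depleted and DNase was used, without poly(A) selection in the labels' protocol, and the cells of both arms were otherwise grown alike. The labels name the control hairpins only as a group, so it is unknown here whether they were identical in both control libraries. Each value is a log2 fold change per transcript, knockdown over control, as the authors computed it, taken for a gene as the middle of its transcripts' values. With 1 knockdown library and no level per library there is no replicate check, no error and no p-value, the depth is unknown, and every comparison below is a description of these libraries. RBMS1 itself (chr2:160272151-160493807, hg38) stood at −1.49, 35.6% of control, and the direction of all values was set so that RBMS1 is lower in the knockdown.

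Replication-dependent histones package newly made DNA. The core histones H2A, H2B, H3 and H4 form the nucleosome, and the linker histone H1 binds where DNA enters and leaves it. Their genes are mostly intronless, sit in clusters, and are transcribed in S phase under NPAT at the histone locus body. Their mRNAs do not as a rule end in a poly(A) tail but in a conserved stem-loop, which is bound by the stem-loop binding protein SLBP and cut 3′ of the stem with the U7 small nuclear RNP. The absence of a poly(A) tail is why such transcripts are usually read from ribosome-depleted total RNA.

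Histone mRNA levels lay close to control in the knockdown library, and in bulk RNA fewer cells in S phase and less histone mRNA per cell cannot be told apart. Computed from the authors' deposited table, the median of the 55 members was 0.022, 102% of control, with quartiles of −0.049 and 0.17. Over all 12582 genes the median was 0.012 with quartiles of −0.25 and 0.23. Of the members, 54 (98.2%) lay within 0.5 of 0 on the log2 scale, where 76.9% of all genes did, and among protein-coding genes with 1 measured transcript, which is how 54 of the members were measured, 81.2% did. Only H3C6 was lower by at least 1 (3.96% of all genes and 3.13% of protein-coding genes with 1 transcript), and 0 members were higher by at least 1 (3.95% and 2.8%). Below 0 stood 23 members and above it 32, and the background below 0 was 48.5% of all genes and 50.8% of protein-coding genes with 1 transcript. Without H3C6 the members ran from −0.21 to 0.34, a width of 0.56 on the log2 scale. The middle of the members lay near that of all genes, and their quartile range was 0.22, beside 0.48 for all genes and 0.43 for protein-coding genes with 1 transcript.

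**Figure D1:**
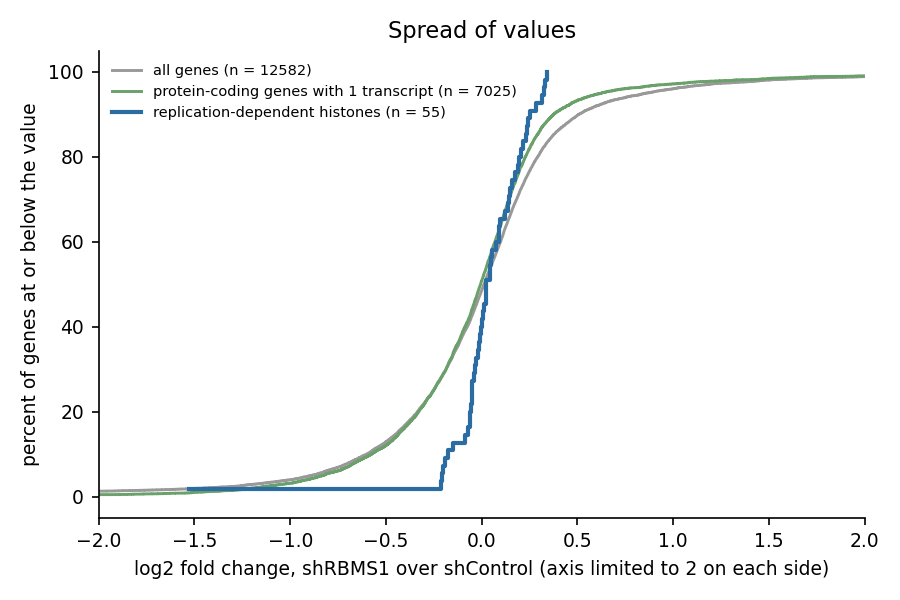
Cumulative share of genes (percent, vertical axis) at or below each log2 fold change, shRBMS1 over shControl (horizontal axis, limited to 2 on each side), for all 12582 genes, 7025 protein-coding genes with 1 measured transcript, and the 55 histone members. The histone curve climbs between −0.21 and 0.34, steeper than both others, with H3C6 alone at −1.53.

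Linker histones of the H1 group lay closest to control. H1-2 was at 0.054 and H1-5 at 0.041 by the authors' deposited table. H1-3 was at −0.033 and H1-4 at −0.049 there. These 4 somatic H1 genes, which compact the chromatin fibre, all lay between 96.7% and 104% of control, with a median of 0.0040 (−0.0081 after centring on the median of all genes).

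H2A and H4 genes had the higher class medians, 0.12 in each. Among the 14 H2A genes, whose product pairs with H2B on the outer faces of the nucleosome, the authors' deposited table put H2AC4 highest at 0.31 (124% of control), then H2AC7 at 0.29 and H2AC15 at 0.25. H2AC21 was lowest at −0.21 (86.3% of control) and H2AC13 next at −0.15 in the authors' deposited table. Of the 14, 9 lay above 0 and 5 below. Beside those, the authors' deposited table had H2AC12 at 0.14 and H2AC16 at −0.0097.

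The 9 measured H4 genes all encode the same 103 residues, so any of their mRNAs gives the same protein. In the authors' deposited table H4C2 was the highest of all members at 0.34 (127% of control), followed by H4C5 at 0.23, H4C9 at 0.20, H4C1 at 0.13 and H4C8 at 0.12. Below 0 in the authors' deposited table stood H4C4 at −0.052, H4C3 at −0.072, H4C16 at −0.086 and H4C13 at −0.20. These genes for 1 protein therefore covered almost the whole range of the members other than H3C6, from 86.8% to 127% of control. The class median of 0.12 rests on values on both sides of 0, with 5 above and 4 below.

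H2B, with 17 genes the largest class, had a median of 0.021, with 10 genes above 0 and 7 below. H2BC11 stood highest at 0.33 (126% of control) by the authors' deposited table, ahead of H2BC10 at 0.24. At the other end the authors' deposited table had H2BC26 at −0.21, H2BC21 at −0.19 and H2BC15 at −0.17. Between them the authors' deposited table had H2BC3 at 0.022, H2BC12 at 0.0046, H2BC6 at −0.0063 and H2BC9 at −0.041. H2B was spread about as widely as H2A, with widths of 0.54 and 0.53 on the log2 scale from lowest to highest.

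H3 genes had a median of 0.0096 (−0.0025 when values are taken relative to the median of all genes), and 10 of the 11 lay between −0.061 and 0.32. H3C10 (0.32) and H3C12 (0.24) were the high members in the authors' deposited table. H3C2 was at 0.088, H3C8 at 0.048, H3C7 at 0.021 and H3C4 at 0.0096 by the authors' deposited table. Just below 0 in the authors' deposited table came H3C13 at −0.012, H3C3 at −0.029, H3C11 at −0.049 and H3C1 at −0.061. Of these 11 genes, 10 encode the same 136-residue protein and H3C13 a protein that differs from it in less than 1% of residues (99.3% identity). H3C6 is among the 10.

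**Figure D2:**
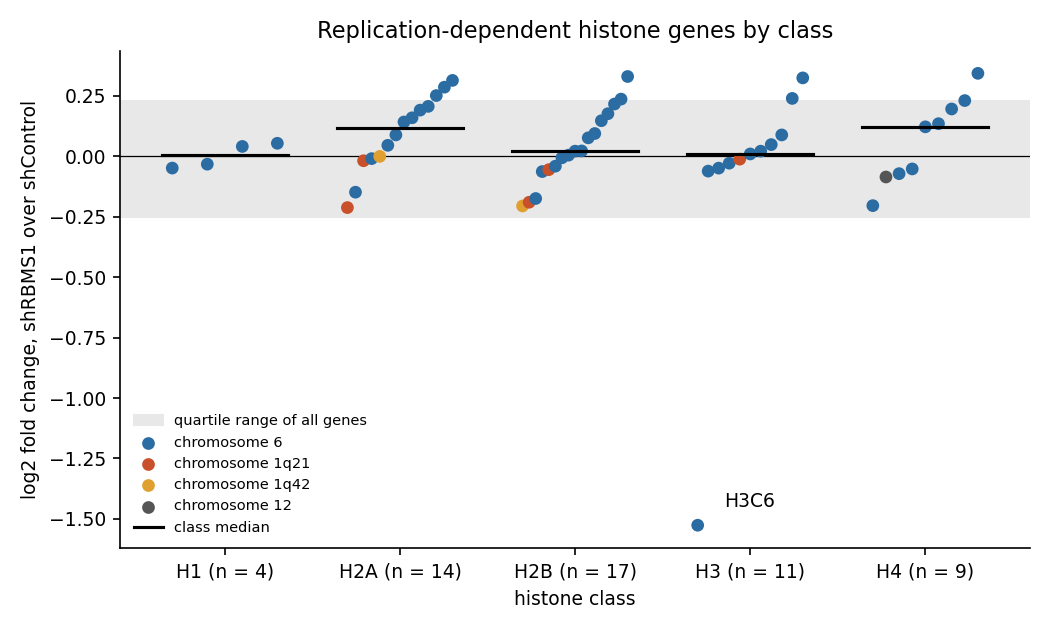
Log2 fold change, shRBMS1 over shControl (vertical axis), of each of the 55 members by histone class (horizontal axis), coloured by cluster, with black bars for class medians and a grey band for the quartile range of all genes (−0.25 to 0.23). Class medians lie between 0.0040 (H1) and 0.12 (H2A and H4), and H3C6 is the only point far from the rest.

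H3C6 (chr6:26224178-26227473) stood apart in the authors' deposited table at −1.53, which is 34.7% of control and percentile 1.86 of all genes. It was singled out after its value was seen. By the authors' deposited table, the next lowest member, H2AC21, was at −0.21, and the genes beside H3C6 on the chromosome lay far above it, with H2AC8 at 0.19 on one side and H1-3 at −0.033 on the other. H3C11, whose coding sequence is the most like that of H3C6 (88.1% of bases), was at −0.049 in the authors' deposited table. Without H3C6 the median of the other 10 H3 genes was 0.015. The table holds no level, so how abundant H3C6 mRNA was in either arm is unknown.

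The 3′ stem-loop, the element that sets these mRNAs apart, was read from the GENCODE 29 model of each transcript to see whether the members, H3C6 among them, carry the same letters. Of the 56 models, 29 hold coding sequence alone and 27 reach past the stop codon. A 16-base match to the histone stem-loop consensus (a stem of 6 base pairs and a loop of 4 bases) was found on the transcript strand after the stop codon in 24 members, 23 to 56 bases behind it. They fall into 6 forms, shown here from 1 member each with 5 flanking bases, the stem-loop in capitals and T in place of U:
H2BC21: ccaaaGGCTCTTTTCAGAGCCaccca
H2BC5: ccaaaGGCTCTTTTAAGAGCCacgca
H4C2: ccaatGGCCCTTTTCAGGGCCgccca
H4C9: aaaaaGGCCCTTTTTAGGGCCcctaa
H2AC11: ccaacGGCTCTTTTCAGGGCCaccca
H3C6: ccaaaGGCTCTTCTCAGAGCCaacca

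In GRCh38 the capitals lie at chr1:149886188-149886203 (minus strand) for H2BC21, chr6:26158587-26158602 (plus) for H2BC5, chr6:26026901-26026916 (minus) for H4C2, chr6:27139654-27139669 (plus) for H4C9, chr6:27133515-27133530 (plus) for H2AC11 and chr6:26225596-26225611 (plus) for H3C6, each in the 3′ UTR. The form of H2BC21 is the commonest, found in 13 members of the classes H2A, H2B and H3, whose values ran from −0.21 to 0.32 with a median of −0.0063. Counting positions from 1 at the 5′ end of the 16 bases, the form of H2BC5 differs from it by C10A in the loop and is shared by H2BC4, H2BC7 and H3C8, with gene values from −0.063 to 0.22. The form of H4C2 differs by T4C and A13G, which face each other in the stem, and is shared by H4C5, H4C8 and H4C16 (median 0.18). H4C9 carries these same changes and C10T. H2AC11 has A13G alone and stood at 0.16 in the authors' deposited table.

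H3C6 carries T8C in the loop, a form found in none of the other 23 members with a match. It is thus the member with the lowest value and the only one with this loop. Whether the letters bear on the value was not tested, and 31 members have no match in these models. The forms of H4C9 (0.20) and H2AC11 (0.16) were likewise found in 1 member each. Of the 27 models with a 3′ UTR, H1-4, H4C3 and the H2BC5 transcript NM_138720 had no match, which says only that these letters are not in those windows.

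ATATA, a sequence that RBMS1 is known to recognise, occurs in the 3′ UTR of the GENCODE 29 models of 9 members (H2AC6, H2AC11, H2BC4, H2BC7, H2BC9, H2BC18, H2BC21, H3C8 and H4C5). Their median was 0.048, beside −0.00055 for the 17 members whose UTR was read and held none. In the other 29 members the model ends at the stop codon, so ATATA could not be looked for. The UTR of H3C6, of 51 bases in its model, holds none. The RefSeq gene of H3C6 runs on to chr6:26227473, while its stem-loop ends at chr6:26225611. The bases beyond the model were not searched, so whether they hold ATATA is unknown. Length of the model goes with a match: of the models with 1000 to 2000 bases after the stop codon, 7 of 9 histone models held ATATA (77.8%), beside 68.9% of all 3547 measured transcripts of that length. Of those with up to 200 bases, 1 of 11 did (9.09%), beside 11.2% of 2435. Of those between 200 and 1000 bases 1 of 7 did (14.3%), beside 37.0% of 6813. The search was on the transcript strand, and no test was made of these few models. In H2AC6, H2AC11, H2BC7, H2BC9, H3C8 and H4C5 the RefSeq gene ends just behind the stem-loop, while the model runs on. For H4C5 the stem-loop ends at chr6:26205016 and the RefSeq gene at chr6:26205021, but the model's UTR has 1082 bases. Whether the matches in these genes lie in the measured mRNA is unknown, and the medians above compare models.

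H2BC5 was the only member with values for separate transcripts. Its transcript NM_021063, of 1 exon, ends in the stem-loop form shown above and was at 0.077 (105% of control) by the authors' deposited table. NM_138720, spliced from 2 exons and without a stem-loop match in its model, was at 0.36 (128% of control) by the authors' deposited table. Both lay above 0, with the spliced form the higher. H2AC6 was the other member with a 2-exon model, at 0.088 in the authors' deposited table.

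The medians of the chromosome 6 and chromosome 1 clusters lay on different sides of 0. The large cluster (chr6:26020451-27893891) held 47 measured members with a median of 0.054 (104% of control), 32 of them above 0 (68.1%) and 15 below. Of all genes 51.5% lay above 0. Of all measured genes on chromosome 6, 56.5% did, and their median of 0.053 was near that of the cluster. The symbols match 55 coding genes on chromosome 6 and 13 on chromosome 1, so a larger share is missing on chromosome 1. Those without a value there (H2AC18, H2AC19, H3C14, H3C15, H4C14 and H4C15) all lie at 1q21. On chromosome 1 all 7 measured members lay below 0, where 48.5% of all genes did, with a median of −0.055 (96.2% of control). In the authors' deposited table the 5 at 1q21 (chr1:149782689-149887965) were H2AC21 at −0.21, H2BC21 at −0.19, H2BC18 at −0.055, H2AC20 at −0.018 and H3C13 at −0.012. The other 2, at 1q42 (chr1:228457364-228458558), were H2BC26 at −0.21 and H2AC25 at −0.00055 by the authors' deposited table. H4C16, alone on chromosome 12, was at −0.086 by the authors' deposited table. The ranges overlap, since 15 members on chromosome 6 were also below 0 and 4 of the 7 on chromosome 1 lay between −0.055 and −0.00055.

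The same order was seen within the classes found in both clusters. With every chromosome 1 member below 0 and each of these chromosome 6 class medians above it, no other order could appear. It is therefore no further support. H2A genes had a median of 0.16 on chromosome 6 (11 genes) and −0.018 on chromosome 1 (3 genes). For H2B the medians were 0.049 (14 genes) and −0.19 (3 genes). H3C13, the H3 gene measured on chromosome 1, was at −0.012 in the authors' deposited table, beside a median of 0.015 for the 10 H3 genes on chromosome 6. Median GC content of the coding sequence was 62.8% for the chromosome 1 members (60.6% to 67.7%) and 60.1% for those on chromosome 6 (54.1% to 64.1%), and its part in the difference was not tested. Across the 55 members Spearman's rho between value and coding GC content was −0.082, a description of genes measured in the same libraries.

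The chromosome 6 cluster falls into 3 blocks separated by more than 500000 bases. The middle block, from H2BC11 to H2AC12 (chr6:27132316-27147562), had a median of 0.16 with all 5 members above 0. The first, from H3C1 to H4C8 (chr6:26020451-26285534), had a median of 0.051 with 18 of 28 above 0. The last, from H2BC13 to H2BC17 (chr6:27807479-27893891), had a median of 0.043 with 9 of 14 above 0. Above 0 lay 64.3% of the first block and 64.3% of the last, beside 51.5% of all genes and 56.5% of those on chromosome 6. In the first and last block, members above and below 0 stood beside each other, as the plot in genome order shows.

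**Figure D3:**
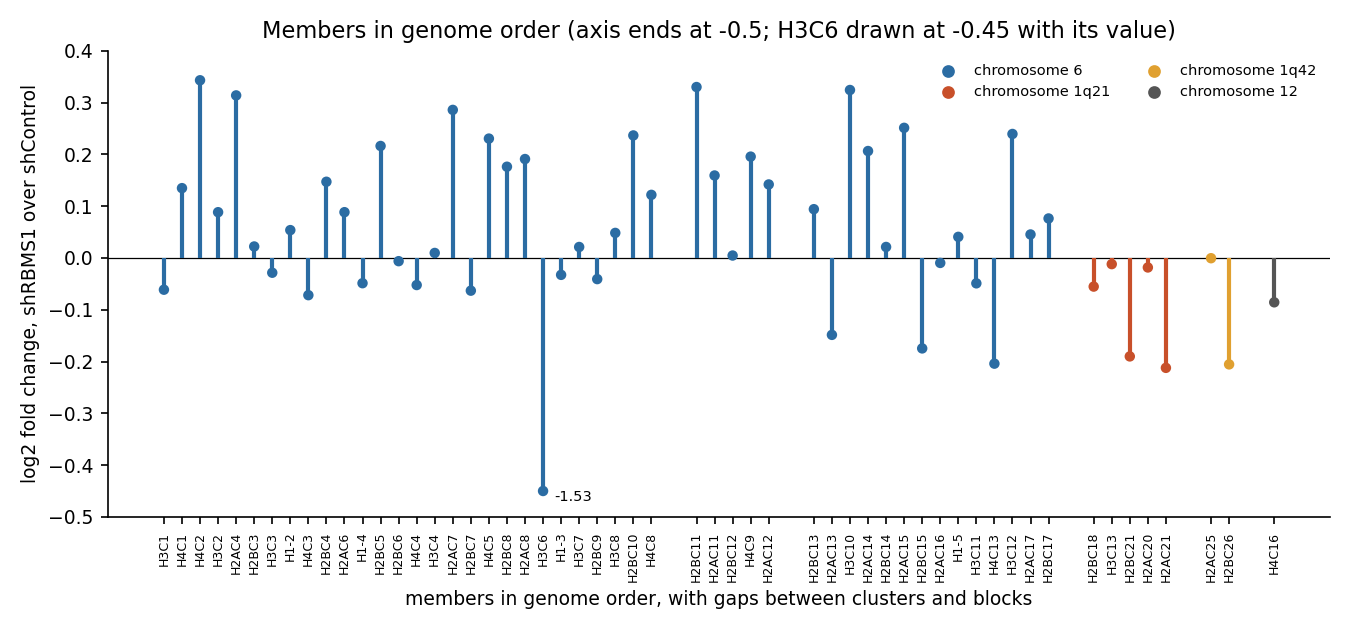
Log2 fold change, shRBMS1 over shControl (vertical axis), of each member in genome order (horizontal axis), with gaps between clusters and between the 3 blocks on chromosome 6. The 7 chromosome 1 members all point down, and 32 of the 47 on chromosome 6 point up. Of all genes 48.5% lay below 0 and 51.5% above it. H3C6, at −1.53, is drawn at the edge of the axis.

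Genes of other kinds around the clusters did not share the narrow range. The 14 measured genes that lie among the chromosome 6 members had a median of 0.15 and ran from −0.96 to 1.88. Within 500000 bases of the 1q21 members 12 other genes, all on one side of them, had a median of 0.049 and ran from −2.53 to 0.57. Around the 1q42 members 9 other genes had a median of 0.19 and ran from −1.57 to 0.68. All measured genes on chromosome 6 had a median of 0.053 (664 genes) and those on chromosome 1 a median of 0.030 (1295 genes). The sign of the chromosome 1 histones was not that of the median of their chromosome or of these windows. Of the 12 genes near 1q21, however, 5 were below 0. Those nearest the histones were among them: BOLA1 at −0.23, SV2A at −0.54 and SF3B4 at −0.44, named after their values were seen. The other 7 were above 0. Whether the chromosome 1 values follow their surroundings was not tested.

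Many H2A and H2B genes stand head to head, with their starts close together and regulatory sequence between them. Of the measured members, 10 such H2A and H2B pairs have starts 194 to 248 bases apart by the RefSeq promoter table, which held 50 of the 55 members (not H2AC12, H3C11, H3C12, H4C1 or H4C3). The 2 stretches below run from one start to the other, from RefSeq GRCh38.p14 on the plus strand, and are shown as a chromosome 6 pair above 0 and a chromosome 1 pair below it. H2BC11 starts at the left end and is read leftward, and H2AC11 at the right end (chr6:27132796-27133042). H2BC21 and H2AC20 are placed likewise (chr1:149886683-149886917). On either strand, capitals mark the octamer ATTTGCAT, the CCAAT box and the TATA box sequence TATAAA, with overlapping matches joined:
H2BC11 and H2AC11: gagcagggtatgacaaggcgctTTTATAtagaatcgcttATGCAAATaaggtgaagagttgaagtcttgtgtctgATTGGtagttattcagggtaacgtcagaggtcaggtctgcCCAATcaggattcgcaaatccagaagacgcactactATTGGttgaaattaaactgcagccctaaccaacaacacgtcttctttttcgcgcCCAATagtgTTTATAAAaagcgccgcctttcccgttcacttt
H2BC21 and H2AC20: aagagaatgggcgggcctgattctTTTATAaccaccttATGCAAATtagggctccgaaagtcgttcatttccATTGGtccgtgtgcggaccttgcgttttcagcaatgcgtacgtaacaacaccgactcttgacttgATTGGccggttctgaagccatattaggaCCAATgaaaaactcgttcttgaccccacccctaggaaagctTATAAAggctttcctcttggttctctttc

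Both stretches hold 1 octamer near the H2B start, and they hold 4 and 3 CCAAT boxes. H2AC11 stood at 0.16 and H2BC11 at 0.33 by the authors' deposited table, both above control. H2AC20 stood at −0.018 and H2BC21 at −0.19 by the authors' deposited table, both below it. The 3 kinds of marked element thus lie between pairs on different sides of 0, but the stretches are not alike. On the plus and minus strand CCAAT occurs 2 and 2 times in the first, 1 and 2 times in the second. The second also holds GGTCCG, which is not marked here and is taken up below.

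Of the 10 pairs, 5 had both genes above 0, 2 had both below and 3 had genes on different sides. The closest pair was H2AC8 at 0.19 and H2BC8 at 0.18 by the authors' deposited table. H2AC17 (0.045) and H2BC17 (0.076), and H2AC6 (0.088) and H2BC4 (0.15), were also near each other in the authors' deposited table. The widest were H2AC15 at 0.25 and H2BC15 at −0.17, 0.43 apart, and H2AC7 at 0.29 and H2BC7 at −0.063 by the authors' deposited table. H2AC13 (−0.15) and H2BC13 (0.094) differed the other way, and H2AC14 and H2BC14 were at 0.21 and 0.021 by the authors' deposited table. On chromosome 1q42, H2AC25 and H2BC26 stood at −0.00055 and −0.21 by the authors' deposited table. The H2A gene was the higher in 6 pairs and the H2B gene in 4, with a median difference, H2A minus H2B, of 0.093 on the log2 scale. With no error for either gene, whether a difference within a pair is larger than the spread between libraries cannot be said.

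**Figure D4:**
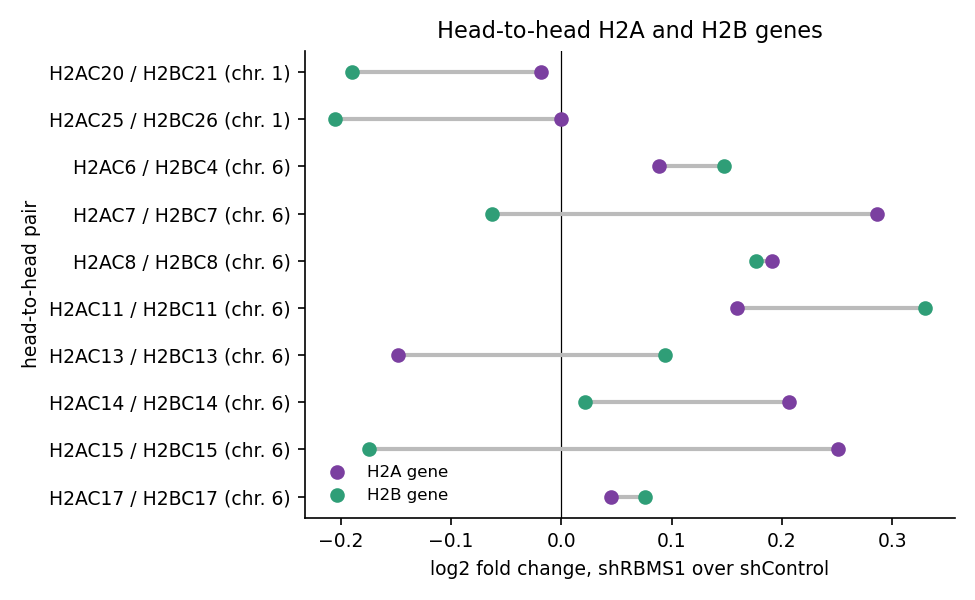
Log2 fold change, shRBMS1 over shControl (horizontal axis), of the H2A (purple) and H2B (green) gene of each of 10 head-to-head pairs (vertical axis), joined by a grey line. Differences within a pair run from 0.015 to 0.43, and 7 of the 10 pairs have both genes on the same side of 0.

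Promoter elements known from histone genes were searched in all classes, whose medians lay within 0.12 of each other. The octamer ATTTGCAT, bound by POU2F1 (OCT1), was found on either strand in the promoters (250 bases before to 50 after the start) of 13 of 17 H2B members, beside 1.77% of all 35116 promoters in the table. Of 13 H2A members 10 held it, 9 of them only on the opposite strand, and of 9 H3 members H3C4 did. The RefSeq genes of H3C4 and H2AC7 start at the same base (chr6:26199293). Matches credited to H3C4 may therefore be those between H2AC7 and H2BC7, counted again. CCAAT on either strand was in 34.6% of all promoters and TATAAA in 11.5%. GGTCCG, part of an H4 promoter element bound by HINFP, was found in 7 of 7 H4 members (11.3% of all promoters), each time 44 to 46 bases before the start, and also in H2AC20, H2BC21 and H3C7. AAACACA, the AC box of H1 promoters, was found in 4 of 4 H1 members (5.64% of all promoters) and in H2AC20. CCAAT was in every H1, H2A, H2B and H3 promoter searched and in 2 of 7 H4 promoters. On the gene's strand 2 or more CCAAT were found in 8 of 9 H3, 13 of 17 H2B and 7 of 13 H2A members (4.0% of all promoters), and in none of the 4 H1 and 7 H4 members. Examples follow 5′ to 3′ on each gene's own strand, with the element in capitals:
H2BC11: ctcttcaccttATTTGCATaagcgattcta
H2BC10: cagccagcctcATTTGCATatacacgaggt
H2BC18: tgcgagtcttcATTTGCATacgggctctat
H4C2: gttctcaataaGGTCCGatgttcgtgta
H4C8: gtcttcaattaGGTCCGaattcccggca
H4C13: gttcccaatcaGGTCCGatttattacta
H1-2: tgaggtggaacAAACACAacttgggagca
H1-4: tgaggtgtaacAAACACAactcgggatcc
H3C10: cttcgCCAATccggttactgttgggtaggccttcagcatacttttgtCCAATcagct
H3C1: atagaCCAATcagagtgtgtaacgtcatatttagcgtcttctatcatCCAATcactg

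In GRCh38.p14 these lie at chr6:27132824-27132853 (minus strand), chr6:26272875-26272904 (plus strand), chr1:149812401-149812430 (minus strand), chr6:26027313-26027340 (minus strand), chr6:26285564-26285591 (minus strand), chr6:27873563-27873590 (minus strand), chr6:26056572-26056600 (minus strand), chr6:26156201-26156229 (plus strand), chr6:27809950-27810006 (plus strand) and chr6:26020353-26020409 (plus strand), in the order shown. Members with the same element stood at both ends of the range: the 7 H4 genes with GGTCCG ran from −0.20 in H4C13 to 0.34 in H4C2. The 13 H2B members with the octamer ran from −0.19 to 0.33 with a median of 0.021, and the 4 without it (H2BC5, H2BC13, H2BC15 and H2BC26) had a median of −0.040 and ran from −0.21 to 0.22. A match here is a run of letters and not a measured binding site.

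How far the members can be told apart limits all of these values. For 50 members another measured member has a coding sequence of equal length, and the most similar one shares 82.4% to 94.2% of its bases (median 89.1%). Of the 55 members, 31 encode a protein that another measured member encodes letter for letter. The division of reads among matching histone genes is not stated in the sources used here. H2BC18 and H2BC21, the most alike at 94.2%, were at −0.055 and −0.19 by the authors' deposited table, and H2BC13 and H2BC15, alike at 94.0%, at 0.094 and −0.17.

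Histone variants made also outside S phase come mostly from polyadenylated mRNAs, and 10 of the 26 described here had a value. Their median was −0.052, with 7 below 0 and 3 above, where 48.5% of all genes lay below 0. As gene values all 10 lay within 0.5 of 0 (76.9% of all genes did), with a quartile range of 0.14, beside 0.22 for the replication-dependent members. These ranges are not of like values. Several variants are medians of transcripts that lay farther from 0, for some on different sides of it, while 54 of the 55 members had 1 transcript. Lowest of these 10 was H1-10, a linker histone, at −0.40 (75.6% of control) by the authors' deposited table, followed by H3-3A at −0.15. Highest in the authors' deposited table were H3-3B at 0.098 and H2AZ2, which encodes an H2A.Z protein, at 0.056. Transcripts of H2AZ2 ran from −0.021 to 0.56. H3-3A and H3-3B both encode the variant H3.3 used outside replication, and stood on different sides of 0. In the same libraries the 4 replication-dependent H1 genes lay within 0.054 of 0.

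Factors that make histone mRNA had a median of 0.027, with 15 of 28 above 0 (53.6%) and none beyond 1 in either direction. Of all genes 51.5% lay above 0, 3.96% were lower by at least 1 and 3.95% higher. SLBP was at −0.45 as a gene (73.2% of control), from transcripts on different sides of 0. NM_006527 was at 0.19 and NM_001306074 at −1.09 in the authors' deposited table. NPAT, the coactivator of histone genes, was at −0.10 by the authors' deposited table. The Sm protein gene SNRPE was highest at 0.99, then CASP8AP2, a part of the histone locus body, at 0.53, while SRRT, a partner of the cap-binding complex, was lowest at −0.75. By the authors' deposited table, transcripts of SRRT ran from −2.54 to 1.30 and the 2 of SNRPE stood at 0.21 and 1.77. The 2 transcripts of CASP8AP2 stood on different sides of 0 there, at 1.48 and −0.43.

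Factors of histone mRNA decay had the highest median of these lists, 0.19, with 15 of 22 above 0 (68.2%), 1 lower by at least 1 and none higher. The shares of all genes were 51.5% above 0, 3.96% lower by at least 1 and 3.95% higher. ERI1, the exonuclease that trims the stem-loop end, was at 0.20 by the authors' deposited table. The exosome nuclease DIS3 was highest at 0.81, from transcripts at 1.35 and 0.26. ERI3 was next at 0.76, from transcripts on different sides of 0 (2.03 and −0.51). TUT7, a uridylyltransferase, was lowest at −1.22, with transcripts from −5.83 to 0.82 by the authors' deposited table, and the kinase SMG1 followed at −0.12.

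Histone chaperones and importins, which carry the proteins to DNA, had a median of 0.075, with 19 of 29 above 0 (65.5%) and none beyond 1. ANP32E, a chaperone of H2A.Z, was at 0.57 and TONSL, a reader of new histones, at 0.42. The 3 ANP32E transcripts were at 0.12, 0.57 and 3.52 by the authors' deposited table. RBBP4, a subunit of the assembly factor CAF-1, was at −0.75 and CABIN1, of the HIRA complex, at −0.74. Transcripts of RBBP4 were at −1.38 and −0.12 by the authors' deposited table, while the 2 of CABIN1 stood on different sides of 0, at −1.70 and 0.22. S phase genes, with 38 of 38 measured, had a median of 0.048, 23 above 0 (60.5%), 1 higher by at least 1 and 1 lower. Beside both lists, 51.5% of all genes lay above 0, 3.95% were higher by at least 1 and 3.96% lower. MCM3 was at 4.17 and MCM4 at 0.97, and DTL at −1.70 and TYMS, thymidylate synthase, at −0.54. By the authors' deposited table, the 2 MCM3 transcripts were at 0.091 and 8.25, the 2 MCM4 transcripts at 2.01 and −0.074, and the 2 DTL transcripts at −4.71 and 1.31. SLBP is counted in this list too.

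**Figure D5:**
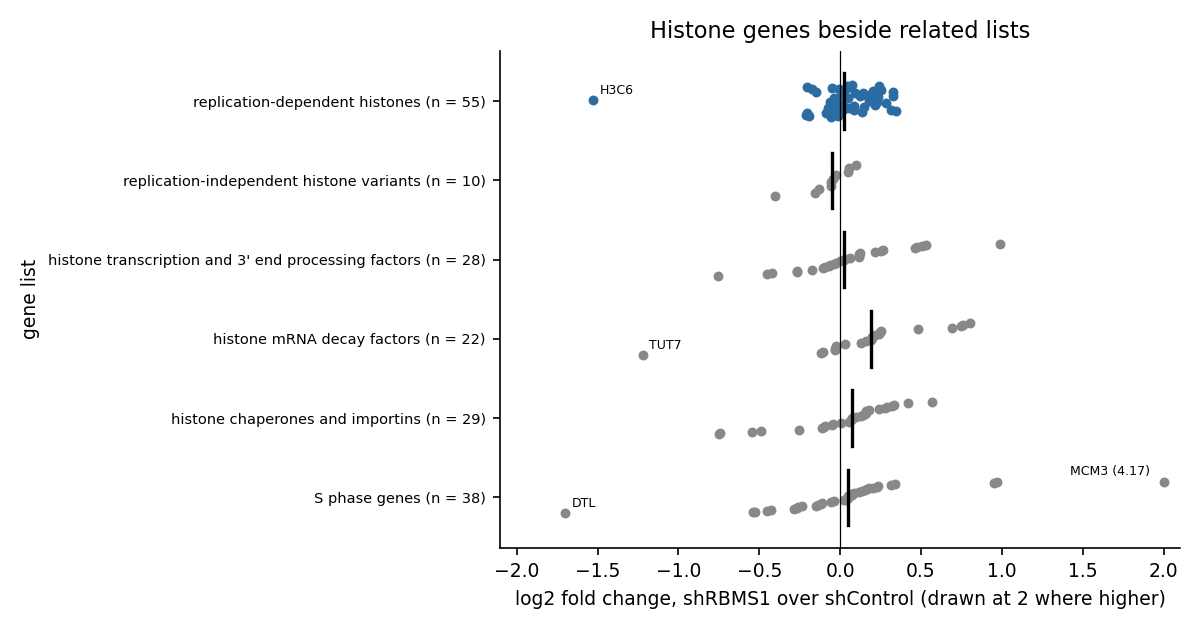
Log2 fold change, shRBMS1 over shControl (horizontal axis, values above 2 drawn at 2), of the histone members (blue) and of the measured genes of 5 related lists (grey), with black bars for medians. List medians lie between −0.052 and 0.19. Some genes of each other list reach farther from 0 than 54 of the 55 histones do, but of the variants only H1-10. Within 0.5 of 0 lay all 10 variants and 77.3% to 86.2% of each remaining list.

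The labelled cell type could be checked only through which markers had a value, since no levels were used. Of 14 colon epithelial genes 7 had a value, with a median of −0.43 and 6 below 0, where 48.5% of all genes were. VIL1 (−2.33) and KRT18 (−1.09) were lowest and KRT8 (0.048) and KRT19 (−0.33) highest. Of the 2 KRT18 transcripts in the authors' deposited table, one was at −0.015 and the other at −2.17. Of the markers of cells that a pure line should lack, 2 of 12 for leukocytes (CD68 at −0.54 and LYZ at −0.68), 1 of 11 for fibroblasts (ACTA2 at −0.0025) and 1 of 9 for endothelial cells (EGFL7 at −0.49) had a value in the authors' deposited table. Their part in the histone values was not tested.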

How the data were processed

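Libraries were made from ribosome-depleted total RNA of SW480 cells, 2 with control shRNA and 1 with shRBMS1, and were grouped by the shRNA in the labels. STAR 2.5 was used with Cufflinks and Cuffdiff on build hg38, per the submitters' processing notes, which give no settings. The deposited values are log2 fold changes per RefSeq transcript made by the authors, 1 for each of 20104 transcripts. Depth, filters and how shared reads were handled are not stated in the sources used here, so no error or interval was computed.

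The header gives neither base nor direction. The spacing of values gave base 2: relative to values that recur 3 or more times, 20 transcripts stood at a distance of 1 (tolerance 1.5e-05), and 4 and 5 at the distances that natural and decimal logarithms of a doubling would give. Direction was set by RBMS1 lying below 0, and the other direction would turn every sign.

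RefSeq GRCh38.p14 named 19818 transcripts (286 had no name), which gave 12582 genes. Genes with several transcripts were given the median. Lists were described by counts and medians, without a test, and the counting was tested on simulated data. Stem-loops, coding sequences and UTRs came from GENCODE 29, by its RefSeq links, and promoters from RefSeq (250 bases before to 50 after a start). The members and lists were chosen with earlier results of these data known. All measured members could be named. Other lists gave their 2 highest and 2 lowest genes, with SLBP, NPAT and ERI1, and 1 listed gene is not reported here. Alternatives were other values per gene, other thresholds, centring, and other sets of members. Python 3.11.15, numpy 2.4.6, pandas 2.3.3 and matplotlib 3.10.9 were used.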

Additional observations from a re-analysis of the deposited data

How the results depend on the processing

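Over 13 alternatives, 173 recomputed values were compared with the 17 reported medians and counts of the histone members. Of the 173, 166 kept their sign, with no median shifted by a 1.5-fold change in expression and no count by over 1.5 times. Much of this was fixed in advance. Since 54 of the 55 members had 1 transcript, settings that took another value per gene could alter only H2BC5, and they changed no reported value. Keeping only protein-coding genes left out no member. No median moved by more than 0.027 on the log2 scale, but several lie so near 0 that this alters them by more than 1.5 times: the median of all members ran from 0.00997 (centred) to 0.043 (chromosome 6 and 1q21 members only), that of H2B went down to 0.0090 (centred), and that of H3 up to 0.015 (without H3C6). Centring on the median of all genes turned the sign of 2 medians, H1 to −0.0081 and H3 to −0.0025, and leaving out the members whose protein another measured member shares turned H3 to −0.012, that of H3C13 alone. That setting left 24 members, 11 of them below 0 and 0 lower by at least 1, and no H4 gene. With a threshold of 2 in place of 1 the count of lower members became 0, and without H3C6, a setting chosen after seeing the data, it was also 0. With fewer members these counts fall by construction. The signs of the chromosome 6 and chromosome 1 medians held in each alternative that kept those members. For chromosome 1 this could not have come out otherwise. Its 7 members had 1 transcript each and all lay below 0, and centring lowered every value. No paired analysis was possible because the groups share only 1 replicate number and the values carry no samples. No library could be left out of a deposited fold change, so the spread between the control libraries, and with it the precision of every value, is unknown.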

Other observations

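Among the 14 other measured genes that lie between the chromosome 6 histone genes, 10 stood above 0, as did 56.5% of all genes on chromosome 6. By the authors' deposited table, HFE, which encodes a regulator of iron uptake and lies between H1-2 and H4C3, was at 1.73 (332% of control). Its histone neighbours H1-2 and H4C3 were at 0.054 and −0.072. The zinc finger gene ZNF322 was at 0.60 there, and the butyrophilin gene BTN2A2 was lowest of these genes at −0.96, as the median of 2 transcripts. Near the 1q21 histone genes, the authors' deposited table had SF3B4, a splicing factor subunit, at −0.44 and MRPS21, a mitochondrial ribosomal protein gene, at 0.42 as the median of 2 transcripts. These genes were named after their values were seen.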
